A study of Mus musculus with 4 samples.

Results

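The Cypt genes of the mouse are a family of spermatid genes named after Cypt1, which was described as a cysteine-rich protein of the perinuclear theca. The members were chosen from testis RNAseq as every gene whose name begins with Cypt and a digit and that had at least 10 exon reads in at least 2 of 4 libraries. The deposited table holds 7 such names among 25683 genes, and all 7 met the rule, so none lay just outside it. The member nearest to the limit was Cypt14, with 51 and 22 reads in knockout and 26 and 34 reads in control testis. The rule used the read level in all libraries, not the difference between genotypes. The levels below are therefore given as a description.

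RNA of whole testis was sequenced as paired-end reads in 2 Parp1 knockout libraries (genotype label PARP1ko) and 2 control libraries (WT). According to the methods of the study, the knockout allele is 129S-Parp1tm1Zqw/J, a neo cassette inserted at exon 2 of Parp1 in every cell of the animal, crossed onto C57Bl/J for several generations. Genomic DNA of 129S origin around Parp1 on chromosome 1 can therefore accompany the knockout. Age and litter were not given in the sources used here, nor whether the libraries came from separate animals. The sample titles of the knockouts name a PARG29b line, whereas the genotype label and the design text name Parp1. Parp1, the poly(ADP-ribose) polymerase targeted by the allele, had 24.1 and 22.1 CPM (exon reads divided by the TMM-scaled library total) in knockout against 86.4 and 85.9 CPM in control testis. Parp1 was therefore lower in both knockout libraries, by −1.90 ± 0.10 on the log2 scale (SE, adjusted p = 0.0126 by edgeR's quasi-likelihood test). Parg had 37.5 and 46.3 CPM in knockout against 37.1 and 35.9 CPM in control testis.

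The 2 knockout libraries have identical column headings and are told apart here by depth, as deeper (21821073 exon reads) and shallower (18103863 exon reads). Knockout values are given in that order. The control libraries had 20449210 and 23503503 exon reads. The knockout libraries stood further apart from each other than the controls did, with a root mean square log2 difference over all genes tested of 0.55 against 0.34. They also differed in cell type markers. The 14 markers of elongating spermatids had a geometric mean of 1956 and 948 CPM in knockout against 1473 and 1492 CPM in control testis. The Leydig cell markers summed to 1145 and 2556 CPM in knockout against 1292 and 1639 CPM in control testis. Without Insl3 the Leydig cell sum was 548 and 760 CPM in knockout against 672 and 859 CPM in control testis. The 6 epididymis markers summed to 0.211 CPM or less in every library. The testis label thus goes with high germ cell markers and near absent epididymis markers, and values that depend on which knockout library is read are given for both.

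The perinuclear theca is a dense protein shell that lies between the acrosome and nuclear envelope of the sperm head and encloses most of the condensed nucleus. It is built in spermatids, the haploid cells that shape the sperm head after meiosis, and Cypt transcripts are known from these cells. The X chromosome is silenced during meiosis, and genes of X that are active in spermatids are often members of families with several copies. In whole testis, fewer cells of a type and less RNA per cell cannot be told apart.

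In GRCm38 (mm10) coordinates of the deposited table, 5 of the 7 genes lie on X. Cypt1 is at chrX:16522869-16523689, Cypt2 at chrX:105499772-105500639, Cypt3 at chrX:153558593-153559429 and Cypt15 at chrX:39346267-39346963, all on the plus strand. Cypt14 is at chrX:39862919-39863604 on the minus strand, in opposite orientation to Cypt15. These 5 genes have 2 exons in the transcript with the longest coding sequence. The deposited table counts 4 exons for Cypt1 and 3 for Cypt3. Cypt4 at chr9:24625196-24625824 and Cypt12 at chr3:17948410-17948959 are autosomal, on the plus strand, and have 1 exon.

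The bases before the transcription start are shown because they hold stretches that all 7 genes share. The windows are RefSeq sequences (GRCm38.p6), 100 bases each, read 5′ to 3′ along the gene and ending at the base before the RefSeq start, which differs from the gene start above by 34 bases for Cypt12, 11 for Cypt4 and 1 for Cypt15. Capitals mark the longest stretch found in all 7 genes and the longest that does not overlap it, and shorter shared stretches are not marked. Cypt1 is chrX:16522769-16522868 (+), Cypt2 chrX:105499672-105499771 (+), Cypt3 chrX:153558493-153558592 (+), Cypt4 chr9:24625085-24625184 (+), Cypt12 chr3:17948344-17948443 (+), Cypt14 chrX:39863605-39863704 (−) and Cypt15 chrX:39346166-39346265 (+).
Cypt1: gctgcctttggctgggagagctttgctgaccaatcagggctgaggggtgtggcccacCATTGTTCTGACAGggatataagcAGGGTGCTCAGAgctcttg
Cypt2: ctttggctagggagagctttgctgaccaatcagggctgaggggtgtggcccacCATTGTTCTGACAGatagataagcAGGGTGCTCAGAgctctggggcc
Cypt3: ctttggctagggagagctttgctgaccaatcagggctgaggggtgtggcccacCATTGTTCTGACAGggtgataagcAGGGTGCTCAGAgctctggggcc
Cypt4: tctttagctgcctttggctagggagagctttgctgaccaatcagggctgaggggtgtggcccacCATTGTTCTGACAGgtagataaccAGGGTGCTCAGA
Cypt12: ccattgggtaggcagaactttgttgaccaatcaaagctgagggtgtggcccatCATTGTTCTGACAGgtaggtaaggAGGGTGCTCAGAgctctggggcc
Cypt14: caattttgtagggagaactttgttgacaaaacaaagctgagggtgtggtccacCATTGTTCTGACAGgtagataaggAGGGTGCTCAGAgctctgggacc
Cypt15: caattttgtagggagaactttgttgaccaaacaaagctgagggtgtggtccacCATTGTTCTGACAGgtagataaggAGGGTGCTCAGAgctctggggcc

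The searches and alignments that follow used the 250 bases before the start, of which the printed windows are the nearest 100. The longer shared stretch, CATTGTTCTGACAG, begins at position −43 in Cypt1, −36 in Cypt4 and −47 in the other members, counting back from −1 at the base before the start. Among 32851 RefSeq upstream windows of 250 bases it occurs on either strand in 7, or 0.0213%, and these are the 7 Cypt genes. The shorter stretch, AGGGTGCTCAGA, begins between −23 and −12 and occurs in 10 windows (0.0304%), the other 3 being those of Olfr522, Rab3b and Snx29. The stretches were chosen by being shared, so their number is a description. Of motifs searched on both strands, CCAAT was present in 5 of 7 windows, against 33.9% of all windows. It begins at −71 in Cypt1, −75 in Cypt2 and Cypt3, −64 in Cypt4 and −74 in Cypt12, with a reverse copy (ATTGG) at −98 in Cypt12, and is not found in Cypt14 and Cypt15. TGACGTCA (1.55% of all windows), TGACG (17.8%), TATAAA (12.4%) and CACGTG (6.02%) were in none of the 7 windows. TGACG lies within TGACGTCA.

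By alignment, the upstream windows of 250 bases fall into groups. Among Cypt1, Cypt2 and Cypt4 the identity was 86.6% to 92.2%, and among Cypt12, Cypt14 and Cypt15 it was 90.8% to 98.8%. The 9 pairs between these groups had 65.9% to 71.3%. Cypt3 belonged to neither, at 67.3% to 73.3% with the first group and 79.9% to 81.4% with the second. In the printed 100 bases Cypt3 was 97.0% identical to Cypt2. In the 150 bases further upstream it was 77.1% to 77.9% identical to the second group, against 50.3% to 59.0% for the first. The identity of coding sequences was 66.3% to 72.2% within the first group, 54.4% to 95.5% within the second and 35.1% to 50.2% between them. Gaps count against identity here, and the coding sequences have 264 to 543 bases, so unlike length alone limits the coding identity of many pairs. With that limit, which the upstream windows of equal length do not have, coding identity was lower than upstream identity in 18 of the 21 pairs. The order was reversed in the 3 pairs of Cypt3 with Cypt1, Cypt2 and Cypt4, whose coding sequences were 76.7% to 80.6% identical. Cypt3 was thus nearest to Cypt2 in its coding sequence and next to the start, and to the second group further upstream.

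**Figure D1:**
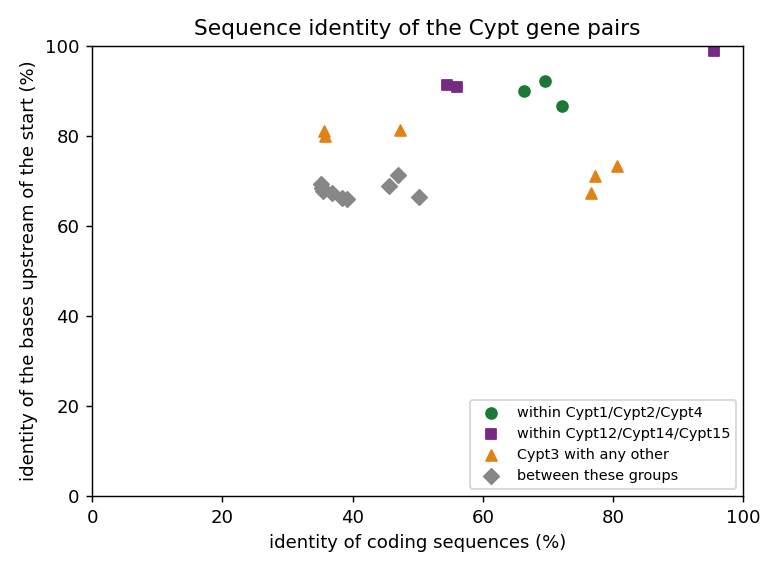
Sequence identity of the 21 pairs of Cypt genes. Each point is a pair, with the identity of its aligned coding sequences (%) on the horizontal axis and of its aligned 250 upstream bases (%) on the vertical axis. Gaps count against identity, which lowers it for coding sequences of unlike length. Circles are pairs within Cypt1, Cypt2 and Cypt4, squares pairs within Cypt12, Cypt14 and Cypt15, triangles pairs with Cypt3 and diamonds pairs between the groups. The pair of Cypt14 and Cypt15 is at the top right, at 95.5% and 98.8%.

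Cypt15 and Cypt14 are the closest pair, and their coding sequences are shown because the reads of such a pair could be mixed. They are GENCODE M21 sequences in GRCm38, joined over 2 exons, from chrX:39346287-39346728 (+) for Cypt15 and chrX:39863142-39863583 (−) for Cypt14. Capitals mark the 12 bases of 264 at which they differ, 11 of which lie in exon 1 and 1 in exon 2.
Cypt15: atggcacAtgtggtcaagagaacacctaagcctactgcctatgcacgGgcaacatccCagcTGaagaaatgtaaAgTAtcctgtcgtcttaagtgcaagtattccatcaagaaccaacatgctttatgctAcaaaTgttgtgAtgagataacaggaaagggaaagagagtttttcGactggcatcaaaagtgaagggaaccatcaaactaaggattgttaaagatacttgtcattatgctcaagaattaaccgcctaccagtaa
Cypt14: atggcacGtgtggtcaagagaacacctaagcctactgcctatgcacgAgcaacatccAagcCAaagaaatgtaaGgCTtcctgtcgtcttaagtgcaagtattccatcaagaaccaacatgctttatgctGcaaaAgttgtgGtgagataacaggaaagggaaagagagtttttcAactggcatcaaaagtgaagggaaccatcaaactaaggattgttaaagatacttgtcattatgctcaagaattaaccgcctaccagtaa
The longest run of identical bases in the transcripts of this pair is 111, shorter than a single read of 150.

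Cysteine content, from which the family takes its name, was counted as TGT and TGC codons. Cypt1 had 16 of 173 codons (9.25%), more than 98.4% of 21387 mouse coding genes. Cypt14 and Cypt15 had 7 of 87 codons each (8.05%), Cypt2 10 of 180 (5.56%) and Cypt3 9 of 174 (5.17%). Cypt4, with 4 of 153 codons (2.61%), and Cypt12, with 3 of 119 (2.52%), were close to the median of all coding genes, 2.13%. The 2 autosomal members without an intron are thus those with the lowest share of cysteine.

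Similar copies can share reads, so total exon reads were set against uniquely mapped reads. This was done for the control libraries only, so the unique share in the knockout libraries is not given. In both control libraries 100% of the reads of all 7 members were unique. For Cypt14, with 26 and 34 reads, the exact (Clopper-Pearson) 95% lower bounds were 86.8% and 89.7%, for Cypt15 97.4% and 98.0%, and for the other members at least 99.7%. Such intervals cover counting error only. Wholly unique reads were also the rule elsewhere, in 85.8% and 85.2% of the genes with 10 or more reads in the controls. No stretch of 150 bases in a Cypt transcript occurred in a transcript of another gene. Of stretches of 31 bases, 25.5% of Cypt14 and 23.7% of Cypt15 did, 13.5% to 17.7% of Cypt2, Cypt3 and Cypt4, 2.80% of Cypt1 and 1.15% of Cypt12. The partners were other Cypt genes and, for Cypt2, Cypt3 and Cypt4, also Zfy2, a zinc finger gene of the Y chromosome.

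Spliced reads gave a further check of the gene models. For Cypt1, reads across exon junctions made up 45.5% and 39.3% of exon reads in the controls. The exact 95% intervals were 43.8% to 47.3% and 37.8% to 40.9%. The shares were 44.4% and 36.4% for Cypt2 and 40.9% and 36.9% for Cypt3. They were 70.4% and 60.8% for the shorter Cypt15 and 73.1% and 70.6% for Cypt14, whose intervals were wide (52.2% to 88.4% and 52.5% to 84.9%). All 5 genes annotated with an intron, of 145 to 178 bp in the transcript with the longest coding sequence, thus gave spliced reads.

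Levels between genes were compared as TPM, in which reads are divided by exon length before scaling to the library. TPM carry no TMM scaling, so differences between libraries can differ from those in CPM. Cypt2 was higher in the shallower knockout library by TPM but in the deeper by CPM. Cypt12 was the most abundant member, with 1306 and 1000 TPM in knockout against 1057 and 1105 TPM in control testis. Cypt4 followed with 1100 and 1084 TPM in knockout against 839 and 889 TPM in control testis. By mean control TPM they rank 93 and 128 among 15834 genes tested, above 99.4% and 99.2% of them, so that both autosomal members are among the most abundant mRNAs of the testis. Cypt1 had 887 and 539 TPM in knockout and 540 and 564 TPM in control testis, which is rank 283. Cypt3 had 477 and 358 TPM in knockout against 253 and 294 TPM in control testis. Cypt2 had 312 and 330 TPM in knockout against 181 and 185 TPM in control testis. Cypt15 and Cypt14 were far lower. Cypt15 had 54.5 and 48.1 TPM in knockout against 30.8 and 34.7 TPM in control testis. Cypt14 had 10.1 and 5.72 TPM in knockout against 5.75 and 6.47 TPM in control testis. The pair with nearly the same coding and upstream sequence thus differed in level, and Cypt14 ranks 10024. In the controls each member was above the next in both libraries. In knockout testis Cypt12 and Cypt4 were not separated, since the shallower library had 1000 TPM of Cypt12 and 1084 TPM of Cypt4.

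**Figure D2:**
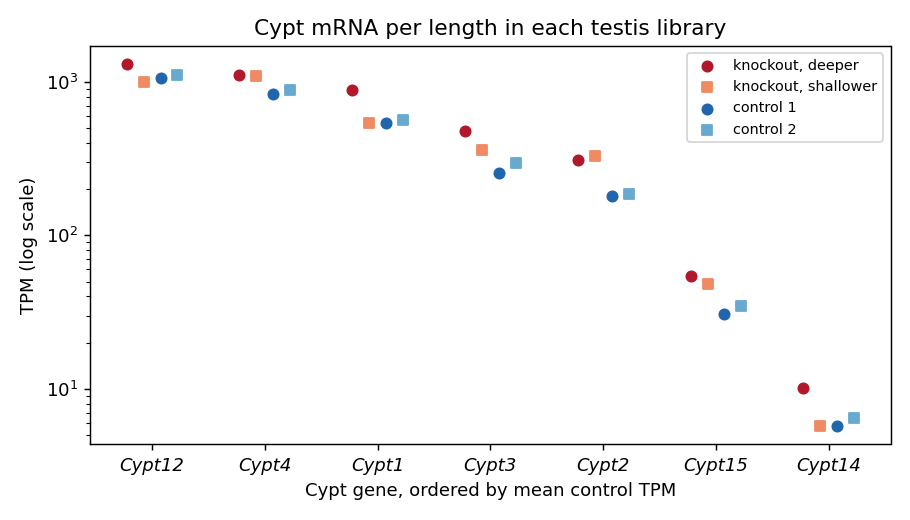
TPM of the 7 Cypt genes in each library, on a log scale, with genes ordered by mean control TPM. For each gene the deeper and shallower knockout libraries stand left of control 1 and control 2, and each point is 1 library. TPM are not TMM-scaled. Cypt2, Cypt3, Cypt4 and Cypt15 are above both controls in both knockout libraries, whereas Cypt1, Cypt12 and Cypt14 are above them only in the deeper one.

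The comparison of knockout with control asks whether the family differs in testis of Parp1 knockout mice. By edgeR's quasi-likelihood test 0 of the 7 members had an adjusted p below 0.05, beside 0.0947% of the genes tested (15 of 15834, with 0.0126% higher and 0.0821% lower). At an unadjusted p below 0.05 there were 4 members, all higher in knockout testis, against 3.57% of all genes tested in that direction and 7.79% in either. In 4 of 7 members both knockout libraries were above both control libraries, against 17.9% of all genes tested, and in no member were both below, against 19.2%. The median log2 fold change of the members was 0.44, beside 0.01 over all genes tested. DESeq2 and edgeR's likelihood ratio test each called 1 member, Cypt2, where they called 0.455% and 0.947% of all genes tested as higher.

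Cypt2 had 106.9 and 90.7 CPM in knockout against 54.5 and 56.3 CPM in control testis. The groups do not overlap, and the lower knockout value is 1.64 times the control mean. Its log2 fold change was 0.83 ± 0.12 (SE), a fold of 1.78 with a 95% interval of 1.46 to 2.18. The unadjusted p was 0.000493 and the adjusted p of the quasi-likelihood test 0.106, so Cypt2 did not pass the main test. By DESeq2 its adjusted p was 0.000627 at a log2 fold change of 0.84.

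Cypt15 had 13.9 and 9.85 CPM in knockout against 6.89 and 7.85 CPM in control testis. Both knockout libraries were higher, by 0.69 ± 0.22 on the log2 scale (SE, 95% interval 0.13 to 1.24, edgeR adjusted p = 0.512). Cypt3 had 158.3 and 95.4 CPM in knockout against 73.8 and 86.6 CPM in control testis. Its groups do not overlap either, but the shallower knockout library was only 1.19 times the control mean and the deeper 1.97 times. The log2 fold change of Cypt3 was 0.66 ± 0.25 (SE, edgeR adjusted p = 0.592). Cypt4 had 340.5 and 269.2 CPM in knockout against 227.6 and 244.2 CPM in control testis, a log2 fold change of 0.37 ± 0.15 (SE, edgeR adjusted p = 0.640). For Cypt2, Cypt3, Cypt4 and Cypt15 both knockout values were thus above both control values, while none reached the adjusted threshold.

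In the other 3 members the groups overlap. Cypt1 had 295.1 CPM in the deeper and 143.7 CPM in the shallower knockout library, against 157.6 and 166.3 CPM in control testis. The knockout libraries therefore lay on either side of the controls, at 1.82 and 0.887 times the control mean. Cypt12 did likewise, with 353.3 and 217.1 CPM in knockout against 250.9 and 265.4 CPM in control testis. So did Cypt14, with 2.52 and 1.15 CPM in knockout against 1.26 and 1.44 CPM in control testis. The log2 fold changes were 0.44 ± 0.32 for Cypt1, 0.14 ± 0.23 for Cypt12 and 0.44 ± 0.46 for Cypt14 (SE). Their 95% intervals, −0.37 to 1.24, −0.44 to 0.73 and −0.71 to 1.60, include 0 as well as changes above 1.5-fold. The difference between the knockout libraries was larger than any between the controls, since the ratio of deeper to shallower was 2.05 for Cypt1 and 2.20 for Cypt14 but 1.18 for Cypt2. The ratio of control 1 to control 2 was 0.852 to 0.968 over the 7 members.

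**Figure D3:**
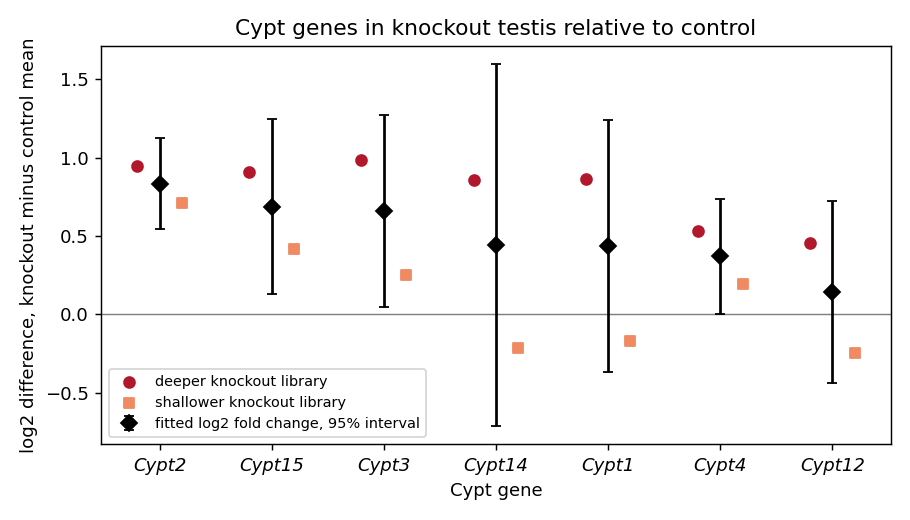
Log2 difference of each Cypt gene from the control mean. Circles are the deeper and squares the shallower knockout library, and diamonds are the fitted log2 fold changes, knockout minus control, with their 95% intervals, in order of size. The interval of Cypt2, 0.55 to 1.12, is the shortest and lies furthest from 0, and those of Cypt14, Cypt1 and Cypt12 include 0.

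Each knockout library decides part of this. Without the deeper knockout library 5 members passed, with Cypt2 at 0.71, Cypt3 at 0.25 and Cypt4 at 0.19 higher and Cypt1 at −0.17 and Cypt12 at −0.25 lower on the log2 scale. In that fit 11.2% of all genes passed as higher and 12.8% as lower. Without the shallower knockout library 6 members passed, all higher, from 0.45 for Cypt12 to 0.98 for Cypt3, beside 11.3% of all genes as higher and 5.64% as lower. In these fits the lone knockout library is taken to vary like the controls, which stood closer together. Without control 1 the quasi-likelihood test called 0 members, 0.0123% of all genes as higher and 0.0369% as lower, and without control 2 it called 0 members, 0.0124% of all genes as higher and 0.0371% as lower.

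Summed over the family, the Cypt genes had 1271 and 827 CPM in knockout against 773 and 828 CPM in control testis. The sum was thus higher in the deeper knockout library, at 1.59 times the control mean, and within the control range in the shallower. The 5 X-linked members summed to 577 and 341 CPM in knockout against 294 and 319 CPM in control testis, so that both knockout libraries were higher. The 2 autosomal members summed to 694 and 486 CPM in knockout against 478 and 510 CPM in control testis, where the groups overlap. Across X the 720 genes tested had a median log2 fold change of 0.16, and 73.5% were above 0, against 51.6% of all genes tested. For the genes of X the median was 0.04 in the deeper and 0.25 in the shallower library. For the X-linked Cypt genes it was 0.91 in the deeper and 0.25 in the shallower. The log2 values of the X genes used a prior count of 2, those of the Cypt genes a small constant added to CPM.

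The makeup of the family, as each member's percent of summed Cypt TPM, was compared next. Cypt2 made up 7.52% and 9.80% in knockout against 6.23% and 6.01% in control testis. Cypt12 made up 31.5% and 29.7% in knockout against 36.4% and 35.9% in control testis. Cypt15 and Cypt3 also had a higher share in both knockout libraries, at 1.31% and 1.43% and at 11.5% and 10.6%, against 1.06% and 1.13% and 8.72% and 9.55% in control testis. The shares of Cypt1, Cypt4 and Cypt14 overlap between the genotypes. Shares within a library add up to a whole, so the lower share of Cypt12 is not a lower level. In CPM the groups of Cypt12 overlapped, with a log2 fold change of 0.14. The shares were not tested, because the smallest two-sided p of an exact permutation of 2 and 2 libraries is 0.33.

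Among markers of spermatids, the cells that express the family, those of the elongating stage moved with the knockout libraries. All 14 elongating spermatid markers were above the control mean in the deeper and below it in the shallower knockout library, and their median difference was 0.40 and −0.66 on the log2 scale. Prm2, a protamine that packs the sperm nucleus, had 7153 and 2604 CPM in knockout against 5651 and 5507 CPM in control testis. Prm1, the other protamine, had 5139 and 2352 CPM in knockout against 3882 and 4085 CPM in control testis. Both protamines were highest in the deeper and lowest in the shallower knockout library, and so were Tnp2 and Odf2. Tnp2, a transition protein that precedes the protamines, had 4051 and 2134 CPM in knockout against 2900 and 3210 CPM in control testis. Odf2, of the outer dense fibres of the sperm tail, had 4226 and 3064 CPM in knockout against 4027 and 3933 CPM in control testis. The median fitted log2 fold change of these markers was 0.00. None passed by edgeR's quasi-likelihood test, DESeq2 or the likelihood ratio test, and none had an unadjusted p below 0.05. The 12 round spermatid markers, of the earlier stage, had medians of 0.38 and −0.01 in the deeper and shallower libraries. Their median fitted log2 fold change was 0.22, with 9 of 12 above 0, beside 51.6% of all genes tested. Both knockout libraries were above both controls in 4 of the 12 and below both in 0, beside 17.9% and 19.2% of all genes tested. The markers' part in the Cypt values was not tested, but the members can be given relative to them.

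Relative to the geometric mean of the elongating spermatid markers, with the control mean as 1, Cypt2 stood at 1.46 and 2.56 in knockout against 0.990 and 1.01 in control testis. Cypt1, which overlapped on the CPM scale, stood at 1.38 and 1.39 in knockout against 0.979 and 1.02 in control testis. The lowest knockout value was 1.04, of Cypt12 in the deeper library, against 0.978 and 1.02 in control testis. On this scale all 7 members were above both controls in both knockout libraries, as were 5.13% of all genes tested, and 5.93% were below. Relative to the round spermatid markers, a scale added after the values were seen, 4 of 7 were, the same 4 as in CPM, beside 4.97% of all genes tested. There Cypt1 stood at 1.44 and 0.953 in knockout against 0.931 and 1.07 in control testis, and Cypt2 at 1.52 and 1.76 in knockout against 0.942 and 1.06 in control testis. The position of Cypt1, Cypt12 and Cypt14 thus depends on which spermatid genes they are set against, while that of the other 4 does not for these scales. No member passed the quasi-likelihood test under either scaling. The median log2 difference of all genes tested was 0.12 relative to the elongating and −0.12 relative to the round markers.

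Other genes of the perinuclear theca and its junction with the acrosome were read from a list of 17, all of which were tested. By edgeR's quasi-likelihood test, DESeq2 and the likelihood ratio test none passed, and 2 had an unadjusted p below 0.05, beside 7.79% of all genes tested. The median log2 fold change was 0.16, with 15 of 17 above 0, beside 51.6% of all genes tested. In 5 both knockout libraries were above both controls and in 1 both were below, beside 17.9% and 19.2% of all genes tested. Cylc1, the X-linked cylicin of the calyx part of the theca, had 64.7 and 57.5 CPM in knockout against 47.1 and 49.4 CPM in control testis (log2 fold change 0.34, unadjusted p by edgeR 0.0210). Cylc2, the autosomal cylicin, was on the other side, with 155.7 and 103.9 CPM in knockout against 191.6 and 190.5 CPM in control testis (−0.56, unadjusted p by edgeR 0.0329). These cylicins, which are partners in 1 structure, thus stood in opposite directions, although neither passed the adjusted test.

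Of the most abundant genes of this list, Actl7b, an actin-like protein of the theca, had 967 and 834 CPM in knockout against 799 and 724 CPM in control testis. Fabp9, a fatty acid binding protein of the theca, had 1084 and 731 CPM in knockout against 954 and 916 CPM in control testis. The genotypes were separate for Actl7b and overlapped for Fabp9, as they did for the next genes. The actin-related Actrt2 had 828 and 514 CPM in knockout against 598 and 607 CPM in control testis. Actl9, another actin-like gene, had 650 and 368 CPM in knockout against 489 and 476 CPM in control testis. Over the 17 genes the median was 0.35 in the deeper and −0.07 in the shallower library, compared with 0.87 and 0.19 for the Cypt genes.

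**Figure D4:**
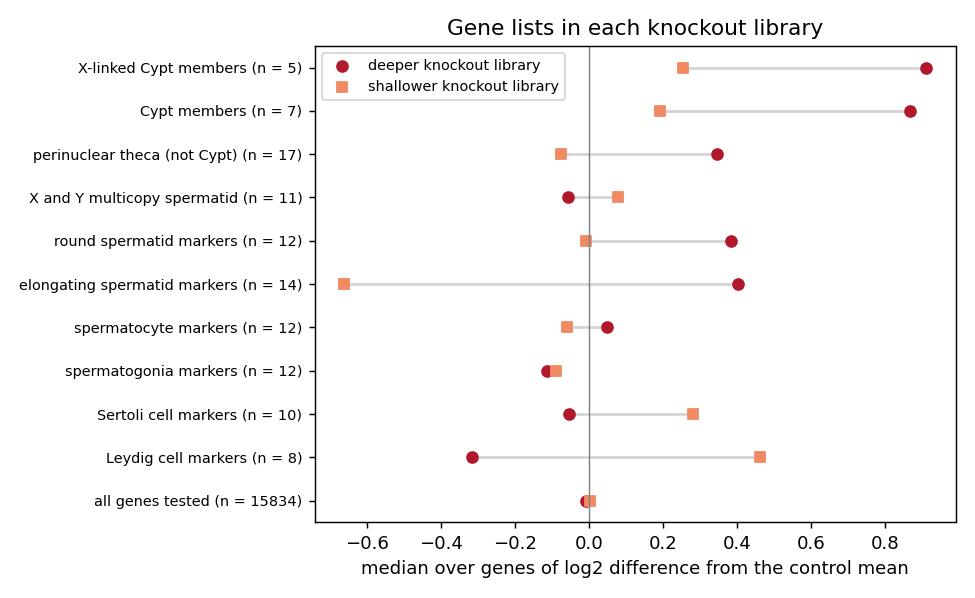
Median log2 difference from the control mean of gene lists, in the deeper (circles) and shallower (squares) knockout library, with the number of genes tested in each list. The median of the Cypt genes is above 0 in both libraries (0.87 and 0.19), and that of all genes tested is near 0. The median of the elongating spermatid markers is on either side of 0 (0.40 and −0.66). In the shallower library 4 of the 7 Cypt genes were above the control mean.

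Other spermatid genes of X and Y that exist in many copies were read from a further list. Of 16 listed, 13 were found in the table by name and 11 were tested. None passed by any of the 3 tests, 1 of 11 had an unadjusted p below 0.05, beside 7.79% of all genes tested, and the median log2 fold change was −0.02. Slxl1, an X-linked gene of spermatids, had 54.3 and 48.3 CPM in knockout against 42.7 and 34.9 CPM in control testis (0.40, unadjusted p by edgeR 0.0292). Sly, its relative on Y, had 16.5 and 17.2 CPM in knockout against 19.7 and 18.2 CPM in control testis. Ssty2, also of Y, had 15.6 and 13.6 CPM in knockout against 12.8 and 13.0 CPM in control testis. Reads of such families can be split between copies, so these values are uncertain. Apart from Slxl1, Sly and Ssty2, the genes tested had 7 to 56 reads in each library. The median of −0.02 is the value of Xlr5a, at 40 to 56 reads, so it rests on low counts. Zfy2, named after the shared sequence was seen, had 9.18 and 10.9 CPM in knockout against 9.07 and 9.29 CPM in control testis, with a log2 fold change of 0.13 (95% interval −0.30 to 0.56).

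Lists for cells other than spermatids stood nearer to 0 than the Cypt genes in the deeper library. The median of 12 spermatocyte markers was 0.05 and −0.06 in the deeper and shallower libraries, that of 12 spermatogonia markers −0.11 and −0.09, and that of 10 Sertoli cell markers −0.05 and 0.28. The Leydig cell markers had −0.32 and 0.46, with Insl3, a peptide hormone of these cells, at 597 and 1795 CPM in knockout against 619 and 779 CPM in control testis. In the shallower library 6 of the 8 Leydig cell markers were above the control mean. Cyp17a1 and Cyp11a1, steroid-producing enzymes of these cells, were below both controls in both knockout libraries. Cyp17a1 had 226 and 259 CPM in knockout against 301 and 389 CPM in control testis. Cyp11a1 had 108 and 148 CPM in knockout against 157 and 201 CPM in control testis. Star, a further Leydig cell marker, overlapped between the genotypes, with 94.0 and 158 CPM in knockout against 97.9 and 133 CPM in control testis. Over the 8 markers, both knockout libraries were below both controls in 2 and above both in 1, beside 19.2% and 17.9% of all genes tested. Peritubular cell markers summed to 56.3 and 79.5 CPM in knockout against 65.4 and 102.9 CPM in control testis, macrophage markers to 40.4 and 92.0 CPM against 49.8 and 83.8 CPM, and those of endothelium and red blood cells to 58.1 and 45.9 CPM against 58.9 and 60.2 CPM. Medians of these lists were, in order, −0.48, −0.47 and −0.14 in the deeper and −0.17, 0.33 and −0.77 in the shallower library. The part of any of these lists in the Cypt values was not tested.

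The genes with the pattern most like the family were those with the smallest root mean square distance, over the 4 libraries, between their centred log2 CPM and the mean of the members. Of 10326 candidates the nearest was Spata25, a testis gene of chromosome 2, at a distance of 0.0268, with 137 and 84.4 CPM in knockout against 77.5 and 82.5 CPM in control testis. Next was Tex13a, an X-linked germ cell gene, at 0.0560, with 127 and 82.5 CPM in knockout against 70.3 and 70.9 CPM in control testis. Cldn34b4 of X, 1700123K08Rik of chromosome 5 and Abcc3 of chromosome 11 followed at 0.0662 to 0.0703. The members themselves lay at 0.0896, for Cypt3, to 0.238, for Cypt2. Counted among the candidates, Cypt3 would rank 16 and Cypt2 1017, so other genes lay nearer to the family mean than any member. With 4 libraries, nearness to the family mean is a description.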

How the data were processed

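Testis RNA of 2 Parp1 knockout and 2 control samples was enriched for poly(A), sequenced, trimmed and aligned to GRCm38 (mm10) in CLC Genomics Workbench by the authors, who deposited whole-number read counts per gene. Strandedness of the counting is not given in the sources used here. The table has 67 columns under library headings (2 of those used hold exon number and length), and 55 of them stayed out of the analysis: RPKM, TPM and, for the knockouts, unique, junction and intron counts. The authors' own comparison (fold changes and p-values) was not used.

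Genes were filtered with filterByExpr (minimum 10 counts), scaled by TMM and compared by the quasi-likelihood test of edgeR 4.0.16 (R 4.3.3), with Benjamini-Hochberg adjustment over 15834 genes and a threshold of 0.05. Intervals are 95%. CPM use TMM library sizes. Log2 differences of single libraries for members and gene lists add a small constant to CPM. The root mean square differences, the medians over X and the distances from the family mean use log2 CPM with a prior count of 2. TPM were computed from the counts and exon lengths. DESeq2 1.42.0 was an alternative, beside other scalings, filters and left-out libraries. At 18103863 to 23503503 reads per library the biological coefficient of variation was 15.3%. The procedure was tried on simulated counts with the same spread for all genes and both genotypes. That setting does not cover knockout libraries that stand further apart than the controls, so it does not bear on the members that were not called. Sequences were RefSeq (GRCm38.p6) and GENCODE M21, aligned with Biopython 1.88.

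The genes named were all members, Parp1, the 5 genes most like the family and genes of some of the 12 lists. No listed gene passed the threshold of the main test. Up to 4 genes of the highest mean CPM were named from the theca, multicopy, elongating spermatid and Leydig cell lists, and none from the others. Members, lists and tests were chosen with earlier results of these data known, and Zfy2, Parg, Cylc1 and Cylc2 were named after their values or sequences were seen. The labels do not say that samples came from separate animals, so p-values measure the spread between these libraries, which may be technical.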

Additional observations from a re-analysis of the deposited data

How the results depend on the processing

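The 15 genes that passed over the whole table became 41 without TMM, 39 and 180 with scaling to elongating or round spermatid markers, 193 by DESeq2, 374 by the likelihood ratio test, 52 without the filter and 53 at a threshold of 0.1. The 0 Cypt members became 1, Cypt2, by DESeq2 and 1 by the likelihood ratio test. With each library left out in turn, 8 to 3890 genes, 0 to 6 Cypt members, 0 to 17 perinuclear theca genes, 0 to 2 multicopy genes and 0 to 13 elongating spermatid markers passed. With a library left out the log2 fold change was −0.17 to 0.87 for Cypt1, −0.25 to 0.45 for Cypt12 and −0.23 to 0.90 for Cypt14, below 0 only without the deeper knockout library. With scaling to the round spermatid markers, an alternative chosen after seeing the data, it was −0.013 for Cypt12. Over 13 alternatives Cypt2 was at 0.71 to 1.01, Cypt15 at 0.42 to 0.92, Cypt3 at 0.25 to 0.98 and Cypt4 at 0.19 to 0.53, always above 0. Of these alternatives, the threshold of 0.1 cannot alter a fold change, and other tests and filters refit the same counts. Both knockout values of these members were above both control values, so a fold change that stays above 0 adds little. The cause of the differences between settings was not tested. No paired analysis was possible because the knockout columns carry the same number. The comparison on unique reads was not run, since the unique reads of the knockout libraries were left out of the analysis. Depth limits Cypt14, at 22 to 51 reads, more than the other members.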
